A study of Mus musculus with 8 samples.

Results

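The step from pre-B to immature B cell was described from 1 RNA library of each stage, over the genes of the mRNA table with 20 or more counts in the 2 libraries together. This rule kept 4594 of 22298 genes, which held 88.2% of the pre-B and 87.9% of the immature B counts. Both populations were sorted as live cells from the bone marrow of wild type female C57BL/6 mice aged 8 to 10 weeks, with the cells of 3 mice pooled in a library. Pre-B cells were gated as B220+ IgM- CD43- and immature B cells as B220+ IgM+ CD43-. The pro-B (B220+ IgM- CD43+) and mature B (B220hi IgM+ CD43-) libraries, from mice of the same strain, sex and age, serve below only as further measurements of the same genes. The gates rest on 3 surface proteins, and large cycling and small resting pre-B cells were not gated apart.

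At the pre-B stage a B-lineage cell carries a rearranged heavy chain and recombines its light chain genes with the RAG1-RAG2 recombinase. A cell that pairs a light chain with the mu chain displays IgM and becomes an immature B cell, which is tested for self-reactivity before it leaves the marrow. Maturing B cells acquire BAFF-dependent survival, co-receptors that tune the antigen receptor, and the class II antigen presentation pathway.

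The mRNA table held 240231 counts in the pre-B library and 223495 in the immature B library, against 867920 in pro-B and 849350 in mature B cells. The mRNA table took 6.48% of the counts of the mRNA and lncRNA tables together in both libraries, and 23.7% and 23.5% in the pro-B and mature B libraries. The mRNA columns of the pre-B and immature B libraries therefore had like totals, both smaller than in the other libraries. There 3 counts, the number used in place of a count of 0, equalled 12.5 CPM in the pre-B and 13.4 CPM in the immature B library. Since each stage is 1 pooled library, differences have no replicate check in these data, and intervals below cover counting error only. Many counts are even, as counts of read pairs would be, so that these intervals are too narrow. The study also reports qPCR on new animals for selected mRNAs of this step, which was not compared here. In bulk RNA, fewer cells of a type and less RNA per cell cannot be told apart.

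At a ratio of 2 or more, 668 genes were higher in the immature B library (14.5% of the genes compared) and 726 were lower (15.8%). These shares are the base for the counts of called genes given for each list below. The other 3200 genes lay within 2-fold, and the median log2 ratio over all 4594 was -0.01, with 5% of genes under -1.90 and 5% over 1.81. The count behind a gene moved with the calls. Among the 2709 genes with 20 to 49 counts, 17.3% were higher and 19.0% lower, and among the 69 genes with 500 or more counts these shares were 2.90% and 1.45%. The fall was not steady: of the 209 genes with 200 to under 500 counts, 11 were higher and 30 lower. The counting interval excluded a ratio of 1 for 574 of the higher and 619 of the lower genes, and the whole interval lay beyond 2-fold for 143 and 151. With halved counts, as for read pairs, the interval excluded 1 for 361 and 366. In the pre-B library 20 of the genes were at 0, and in the immature B library 29.

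**Figure D1:**
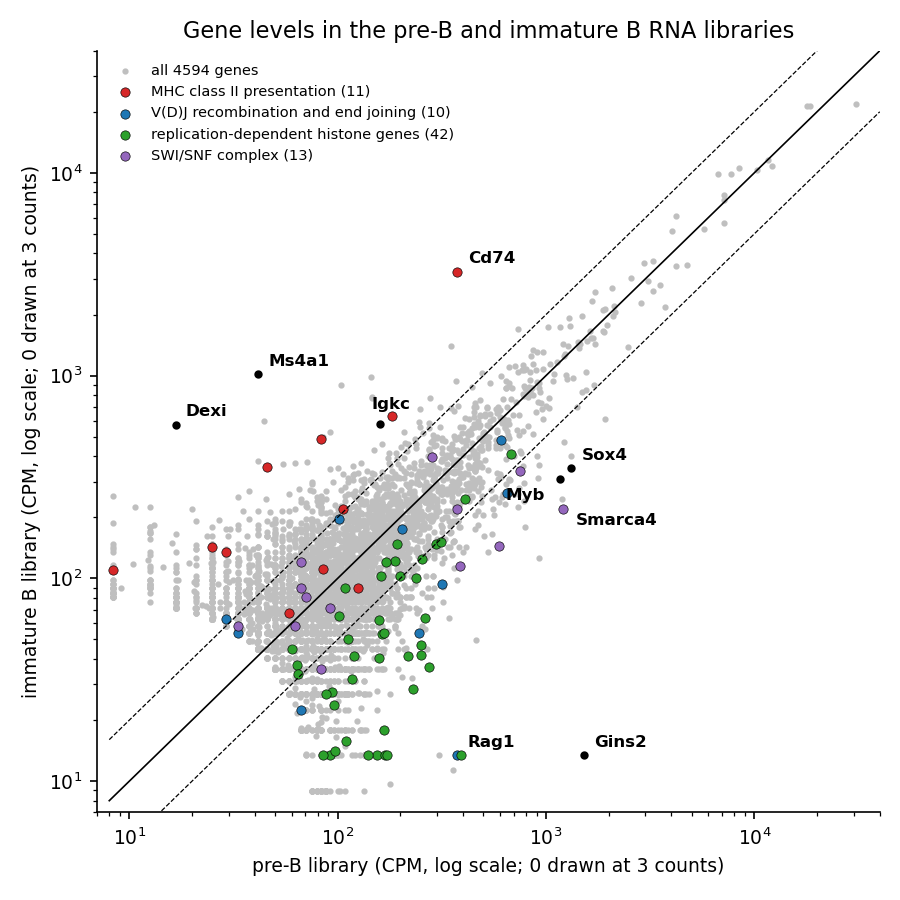
Each point is a gene with 20 or more counts, placed by its CPM in the pre-B library (x axis, log scale) and in the immature B library (y axis, log scale), and counts of 0 are drawn at 3 counts. Black points are named genes outside the 4 coloured lists. The solid line marks equal levels and the dashed lines 2-fold; Cd74, Ms4a1 and Dexi stand far above it, Rag1, Gins2 and Smarca4 far below, and most of the 4594 genes lie between the dashed lines.

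**Figure D2:**
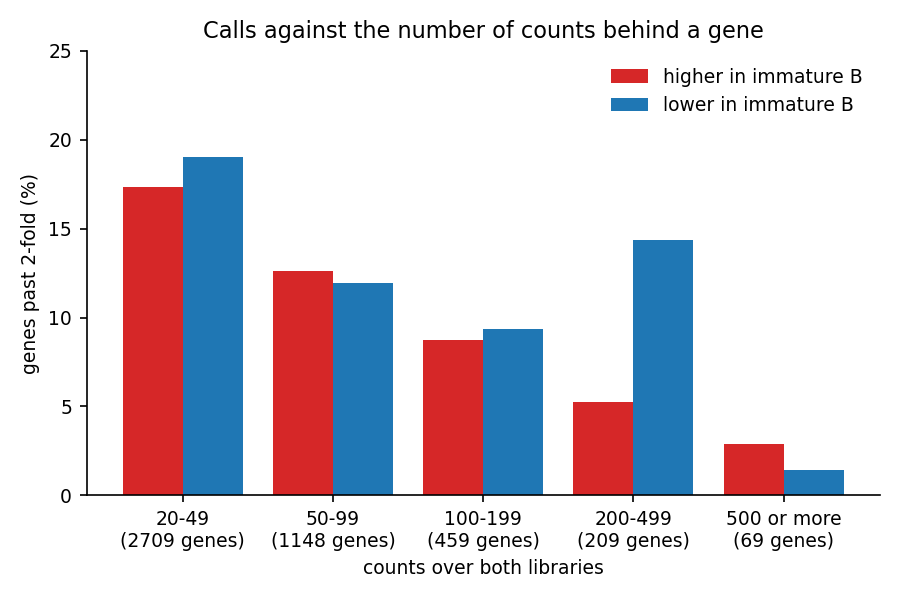
Bars give the percentage of genes past 2-fold in each direction (y axis) for genes grouped by their counts over both libraries (x axis, number of genes in brackets). The shares are 17.3% higher and 19.0% lower at 20 to 49 counts and 2.90% and 1.45% at 500 or more, and at 200 to under 500 counts 5.26% are higher and 14.4% lower.

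The labels of both libraries were set against markers. Cd74, the invariant chain that escorts class II molecules, was at 375 CPM in pre-B and 3257 CPM in immature B cells. Ms4a1, which encodes CD20, was at 41.6 and 1016 CPM. Igkc, the kappa constant region, was at 159 and 579 CPM. Rag1 was at 372 CPM in the pre-B library and at 0 in the immature B library, and Smarca4, the BRG1 ATPase of the SWI/SNF remodelling complex, at 1208 and 220 CPM. The first 3 were higher and the last 2 lower in immature B cells by more than 2-fold, in genes that were chosen with their values known. The markers of earlier progenitors Dntt and Igll1, which were at 974 and 492 CPM in pro-B cells, had no count in either library. Of the gate's own genes, Ptprc (B220) was at 39.1 and 69.8 CPM, Spn (CD43) had 9 counts in pre-B and 0 in immature B cells, and Ighm was at 7147 and 7816 CPM, a ratio of 1.09 with an interval from 1.02 to 1.17.

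Markers of cells other than those sorted for were not absent. The 10 T and NK cell markers summed to 54.0 CPM in pre-B and 89.1 CPM in immature B cells, where Cd2 (20.7 and 71.2 CPM) alone reached 20 counts, and Cd3e, Cd3g, Nkg7, Ccl5, Gzma, Klrd1 and Trbc1 had no count in either library. The 12 myeloid markers summed to 1861 and 1457 CPM, and 8 of them reached 20 counts, of which Mpo (54.1 and 157 CPM) was higher and S100a9 (291 and 89.5 CPM) lower. S100a8 was at 329 and 331 CPM and Lyz2 at 366 and 233 CPM. The 9 erythroid markers summed to 450 and 325 CPM, with no call among the 3 that reached 20 counts. The 7 plasma cell markers summed to 807 and 644 CPM, with Sdc1 lower (108 and 35.8 CPM), and the 8 plasmacytoid dendritic, megakaryocyte and stromal markers to 142 and 170 CPM. The part of other cells in the results below was not tested.

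The class II antigen presentation genes were the list that stood highest in immature B cells. Of 16 genes listed, 11 reached 20 counts, of which 8 were called higher and none lower. Their median log2 ratio was 2.20, and 1.69 over all members with a count. Some members, such as H2-DMa and Ctss, reached 20 counts only through the immature B library, where they are high. Summed over the list, the level was 1171 CPM in the pre-B and 5708 CPM in the immature B library, a ratio of 4.87 (4.29 to 5.57), and without Cd74 the ratio was 3.08 (2.61 to 3.66). In the other libraries the sum was 1656 CPM in pro-B and 17905 CPM in mature B cells.

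Class II genes share a proximal promoter layout, in which an X box bound by the RFX complex and a Y box bound by NF-Y recruit the co-activator CIITA. The 150 bases before the RefSeq start of class II genes (GRCm38.p6) are shown for the members with a 2-fold or larger difference that have an entry, beside H2-DMb1 and H2-Ob. Of 9 class II genes looked up, 7 had an entry, and Cd74 and H2-Ab1 had none. Capitals mark GATGATG, letters that can form part of the X box region, and GATTGG, a core of the Y box, on either strand (the second reads CCAATC when reversed). H2-DMa has entries for 2 starts, with neither motif in either window, and is not printed.
H2-Eb1: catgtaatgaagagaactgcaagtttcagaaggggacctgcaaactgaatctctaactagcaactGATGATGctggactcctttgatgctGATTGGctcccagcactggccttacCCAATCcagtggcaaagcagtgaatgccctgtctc
H2-DMb2: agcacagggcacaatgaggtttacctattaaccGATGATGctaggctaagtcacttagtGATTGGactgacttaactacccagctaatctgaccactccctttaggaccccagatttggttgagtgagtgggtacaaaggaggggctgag
H2-DMb1: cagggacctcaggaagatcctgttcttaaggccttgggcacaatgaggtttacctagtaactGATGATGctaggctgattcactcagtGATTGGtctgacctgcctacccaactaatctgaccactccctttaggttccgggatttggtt
H2-Aa: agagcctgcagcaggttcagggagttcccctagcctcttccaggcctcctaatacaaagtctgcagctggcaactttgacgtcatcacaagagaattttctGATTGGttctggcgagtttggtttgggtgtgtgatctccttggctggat
H2-Ob: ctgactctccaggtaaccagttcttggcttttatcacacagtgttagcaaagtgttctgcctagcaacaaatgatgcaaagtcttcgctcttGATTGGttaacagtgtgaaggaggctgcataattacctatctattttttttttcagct

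The windows are chr17:34305717-34305866 (plus strand) for H2-Eb1, chr17:34145099-34145248 (plus) for H2-DMb2, chr17:34153041-34153190 (plus) for H2-DMb1, chr17:34287824-34287973 (minus) for H2-Aa and chr17:34238755-34238904 (plus) for H2-Ob. All 5 hold GATTGG, and H2-Eb1, H2-DMb2 and H2-DMb1 also hold GATGATG, with 18 bases between it and the first GATTGG in H2-Eb1 and 19 in the pair of H2-DMb genes. Over all 32851 RefSeq windows of this length, 10.9% held GATTGG, 1.80% held GATGATG and 0.174% held both. H2-Oa held GATTGG alone. A match describes letters and is no evidence of binding. A window without GATGATG can still hold an X box of other letters, which were not searched for.

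The alpha and beta chains of the class II molecules were all higher. H2-Aa was at 83.3 CPM in pre-B and 484 CPM in immature B cells, a ratio of 5.81 (3.58 to 9.88). H2-Ab1 was at 183 and 631 CPM, a ratio of 3.44 (2.44 to 4.95). H2-Eb1 was at 45.8 and 353 CPM, a ratio of 7.72 (4.09 to 16.1).

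Of the genes that load peptide on these molecules, those of H2-DM and cathepsin S were also higher, with fewer counts. H2-DMa, a chain of the peptide exchange factor, had 6 counts in pre-B and 32 in immature B cells, a ratio of 5.73 (2.36 to 16.8). H2-DMb2, a partner chain whose copy H2-DMb1 is nearly identical, had 2 and 24.6 counts, a ratio of 13.2 (3.35 to 117), and the copy had 0 and 5.36 counts. Because reads of the pair can be split, their separate values are uncertain. Ctss, the cathepsin that trims the invariant chain, had 7 and 30 counts, a ratio of 4.61 (1.98 to 12.4). H2-Ob, a chain of the exchange inhibitor H2-O, was at 85.3 and 111 CPM, a ratio of 1.30 (0.717 to 2.55).

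The regulators of the pathway gave few counts. Ciita had 3.36 counts in the pre-B and 2.84 in the immature B library, under the minimum for a ratio, against 563 in mature B cells. Rfxank, a subunit of the RFX complex, was at 106 and 219 CPM, a ratio of 2.07 (1.23 to 3.40), and Rfx5 at 58.3 and 67.1 CPM. Lgmn, a lysosomal protease, was at 125 and 89.5 CPM. Dexi, which lies between Ciita and Clec16a and overlaps the end of Ciita in RefSeq, had the largest ratio of all genes with 100 or more counts: 4 counts in pre-B and 128 in immature B cells, a ratio of 34.4 (13.1 to 128). Its level was 33.4 CPM in pro-B and 608 CPM in mature B cells. Clec16a was at 99.9 CPM in pre-B and 103 CPM in immature B cells. Tvp23a, on the far side of Ciita, had 26 and 57 counts, a log2 ratio of 1.24.

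Class I genes stood beside these as a comparison. Of 13 class I genes, 10 reached 20 counts, none was called higher and 1 lower, and the median log2 ratio was 0.08. H2-K1 was at 1224 CPM in pre-B and 1244 CPM in immature B cells, H2-D1 at 840 and 825 CPM, and B2m, the shared light chain, at 554 and 609 CPM, a ratio of 1.10 (0.859 to 1.41). The gene called lower was Nlrc5, the class I co-activator, at 154 and 35.8 CPM, 4.30-fold lower (1.97 to 10.7).

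**Figure D3:**
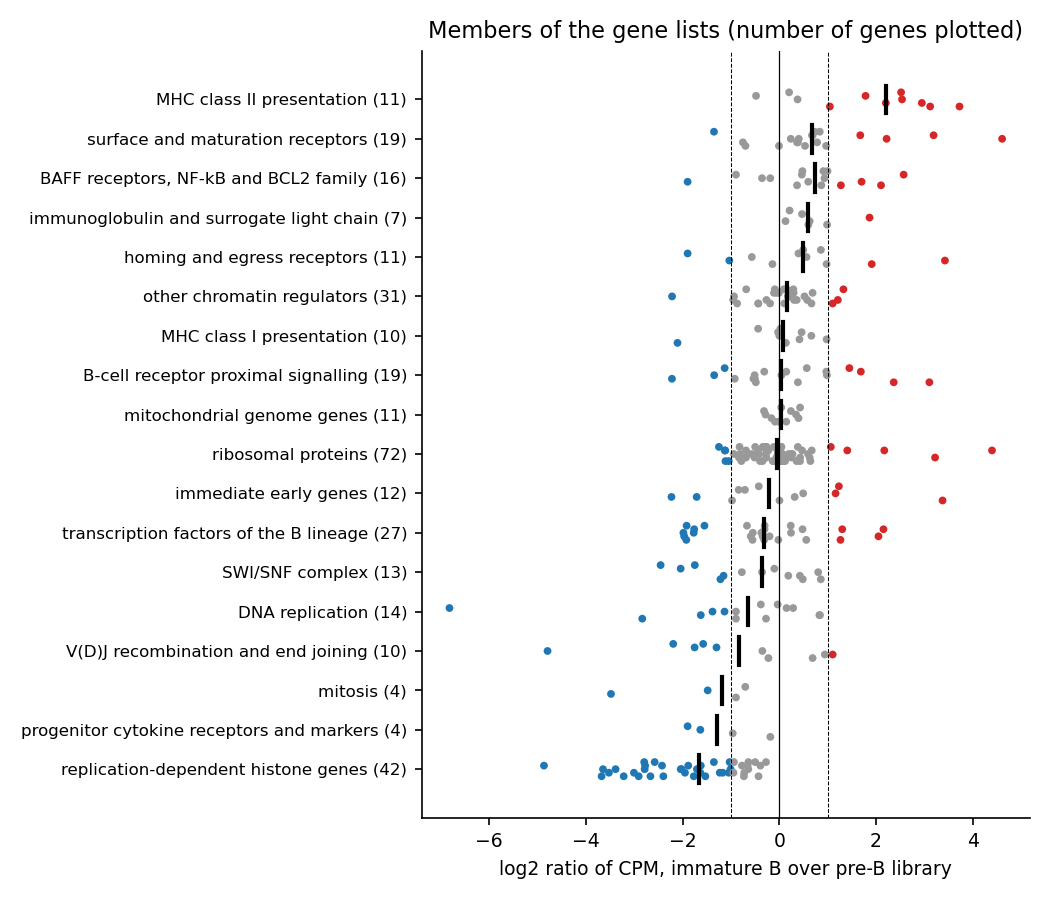
Points are genes with 20 or more counts, by their log2 ratio of CPM in immature B over pre-B cells (x axis), in 18 gene lists (y axis, number plotted in brackets). Red and blue points lie 2-fold or more higher or lower, dashed lines mark 2-fold and black bars the list's median, from 2.20 for the class II list to -1.67 for the replication-dependent histones.

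Among surface receptors of maturing B cells, 19 of 22 genes reached 20 counts, 4 were higher and 1 lower, and the median log2 ratio was 0.68. The called shares were 21.1% and 5.26%, beside 14.5% and 15.8% over all genes. Ms4a1 had 10 counts in pre-B and 227 in immature B cells, a ratio of 24.4 (13.0 to 51.6), and its level was 104 CPM in pro-B and 792 CPM in mature B cells. Cd22, an inhibitory co-receptor of the antigen receptor, had 10 and 85 counts, a ratio of 9.14 (4.73 to 19.7). Cd52 (6 and 26 counts) and Pecam1 (11.8 and 35 counts) were the other two genes called higher. Cd37, a tetraspanin, was at 662 and 1101 CPM, a ratio of 1.66 (1.36 to 2.04), and Ly6d at 903 and 1307 CPM, a ratio of 1.45 (1.21 to 1.73). Fcrla, an intracellular Fc receptor-like protein, was the gene called lower, at 924 and 362 CPM, 2.55-fold lower (1.97 to 3.33).

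The proximal signalling chain of the antigen receptor did not move as a block. Of 20 genes 19 reached 20 counts, 4 were higher, 3 lower and 12 within 2-fold, with a median log2 ratio of 0.04. Higher and lower genes were 21.1% and 15.8%, near the 14.5% and 15.8% over all genes. The largest ratio was that of Ptpn6, which encodes the phosphatase SHP-1 recruited by inhibitory receptors: 25 counts in pre-B and 200 in immature B cells, a ratio of 8.60 (5.66 to 13.6). By the authors' FPKM values the log2 ratio of Ptpn6 was 1.88 in place of 3.10. Bank1, a scaffold of receptor signalling, had 10 and 48 counts, a ratio of 5.16 (2.58 to 11.4), and Plcg2, the receptor's phospholipase C, was at 58.8 and 189 CPM, a ratio of 3.22 (1.73 to 6.39). Cd79a, a signalling chain of the receptor, was at 249 and 680 CPM, a ratio of 2.73 (2.01 to 3.74), where Cd79b, its partner, was at 2073 and 2707 CPM, a ratio of 1.31 (1.16 to 1.47).

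The genes called lower in this list were the adaptors Dok3 and Blnk and the kinase Lyn. Dok3 was at 263 and 56.4 CPM, 4.66-fold lower (2.46 to 8.93). Blnk, which links SYK to downstream enzymes and serves the pre-B receptor, was at 171 and 67.1 CPM, 2.54-fold lower (1.38 to 4.95). Lyn was at 470 and 215 CPM, 2.19-fold lower (1.55 to 3.14). Syk was at 773 and 533 CPM and Pik3ap1, an adaptor for PI3-kinase, at 957 and 684 CPM, both within 2-fold. In the KEGG B cell receptor signaling pathway as listed in the table, 64 of 201 genes reached 20 counts, with 16 higher, 6 lower and a median log2 ratio of 0.39. Its called genes include the immunoglobulin genes Ighv1-26, higher, and Igha, Ighg2b and Ighv1-19, lower.

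In the survival list (BAFF receptors, NF-kB and the BCL2 family) 16 of 20 genes reached 20 counts, 4 were higher and 1 lower, and the median log2 ratio was 0.73. Tnfrsf13c, the BAFF receptor, had 15 counts in pre-B and 83 in immature B cells, a ratio of 5.95 (3.41 to 11.1). The others called higher were Nfkb2 (14 and 42.4 counts), Traf3 (4 and 16 counts) and Rela (8 and 18 counts), which carry and restrain NF-kB signals. Bcl2l1, which encodes the anti-apoptotic BCL-XL, was the gene called lower, at 167 and 44.7 CPM, 3.72-fold lower (1.83 to 8.34). Mcl1, another anti-apoptotic member, was at 450 and 626 CPM, Nfkbia, the NF-kB inhibitor, at 654 and 510 CPM, and Rel, an NF-kB subunit, at 275 and 548 CPM, just under 2-fold.

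Of 11 immunoglobulin and surrogate light chain genes 7 reached 20 counts, all with a log2 ratio above 0, and 1 was called. Igkc was at 159 CPM in pre-B and 579 CPM in immature B cells, a ratio of 3.65 (2.52 to 5.39). The 100 kappa V segments together had 134 and 332 counts, a ratio of 2.66 (2.17 to 3.28). The lambda constant genes lay within 2-fold: Iglc1 at a ratio of 1.39 (0.889 to 2.18), Iglc2 at 1.16 (0.777 to 1.73) and Iglc3 at 1.52 (0.920 to 2.49). The 3 lambda V segments together gave a ratio of 1.41 (0.953 to 2.08), with Iglv3 (11.1 and 28.4 counts) called higher. The difference between kappa and lambda was not tested. The 115 heavy chain V segments together had 194 and 236 counts, a ratio of 1.31 (1.08 to 1.59). Ighd, the IgD constant region, had 13 and 24 counts, a ratio of 1.98 (0.971 to 4.24), against 1607 counts in mature B cells. Vpreb3, which associates with new light and mu chains, was at 295 and 456 CPM. V segments and the lambda constant genes are near-identical copies, so that single values are uncertain.

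Of 15 V(D)J recombination and end-joining genes, 10 reached 20 counts, 5 were lower and 1 higher, and the median log2 ratio was -0.82, and -0.31 over all members with a count. The list summed to 2671 CPM in pre-B and 1417 CPM in immature B cells, 1.88-fold lower. Rag1 had 89.4 counts in the pre-B and 0 in the immature B library, with 918 CPM in pro-B and 1.18 CPM in mature B cells. With the 0 set to 3 counts Rag1 was 27.7-fold lower (the counting interval starts at 22.0-fold). Rag2, its partner, was at 316 and 94.0 CPM, 3.37-fold lower (2.05 to 5.75), so that the pair differed in whether any count was left in immature B cells. The pre-B count of Rag1 is not whole but estimated, and the difference between the pair was not tested.

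End-joining genes followed in part. Xrcc6, which encodes Ku70, was at 246 and 53.9 CPM, 4.57-fold lower (2.43 to 9.35). Lig4, the ligase of the same pathway, had 16 and 5 counts, 2.98-fold lower (1.04 to 10.4). Hmgb2, a DNA-bending cofactor of the recombinase that also serves other chromatin processes, was at 649 and 264 CPM, 2.46-fold lower (1.81 to 3.38), where Hmgb1 was at 610 and 479 CPM. Prkdc, the DNA-dependent kinase, was the gene called higher, with 7 and 14 counts and an interval from 0.812 to 6.29 that holds 1. Polm was at 204 and 175 CPM.

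Of 13 receptors and markers of progenitors only 4 reached 20 counts, and 2 of these were lower. Their median log2 ratio was -1.30, and -0.57 over all members with a count. Il7r, the receptor chain for IL-7, had 32 counts in pre-B and 8 in immature B cells, 3.72-fold lower (1.68 to 9.35). Il2ra, a pre-B cell marker known as CD25, had 20 and 6 counts, 3.10-fold lower (1.20 to 9.44). Cd93 was at 183 and 94.0 CPM, and Cd24a, high on immature stages, at 1882 and 1656 CPM, 1.14-fold lower (0.988 to 1.31).

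Among 33 transcription factors of the lineage, 27 reached 20 counts, 4 were higher and 7 lower, and the median log2 ratio was -0.32. Myb, a factor of proliferating progenitors, had 280 counts in pre-B and 69 in immature B cells, 3.78-fold lower (2.89 to 4.99), and 24.7 CPM were left in mature B cells. Sox4, a progenitor survival factor, had 318 and 78 counts, 3.79-fold lower (2.95 to 4.92). Tcf3, which encodes the E2A proteins, was at 916 and 313 CPM, 2.92-fold lower (2.22 to 3.88). Klf3 (17 and 4 counts), Pou2f1 (22 and 6 counts), Elf1 (37 and 10.2 counts) and Zeb2 (126 and 30.1 counts) were also called lower.

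The 4 factors called higher are 14.8% of the 27, beside 14.5% over all genes. Mef2c had 14 counts in pre-B and 58 in immature B cells, a ratio of 4.45 (2.45 to 8.65). Bcl11a had 7 and 27 counts, Pou2f2 (OCT2) 14.8 and 34 counts, and Irf8 59 and 132 counts, a ratio of 2.40 (1.76 to 3.33). Pax5 and Ebf1, which maintain B cell identity together with the E2A proteins above, lay within 2-fold. Pax5 was at 844 and 1242 CPM, a ratio of 1.47 (1.22 to 1.77), and Ebf1 at 652 and 446 CPM, 1.46-fold lower (1.13 to 1.90). Bach2 was at 743 and 507 CPM and Spib at 577 and 682 CPM.

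**Figure D4:**
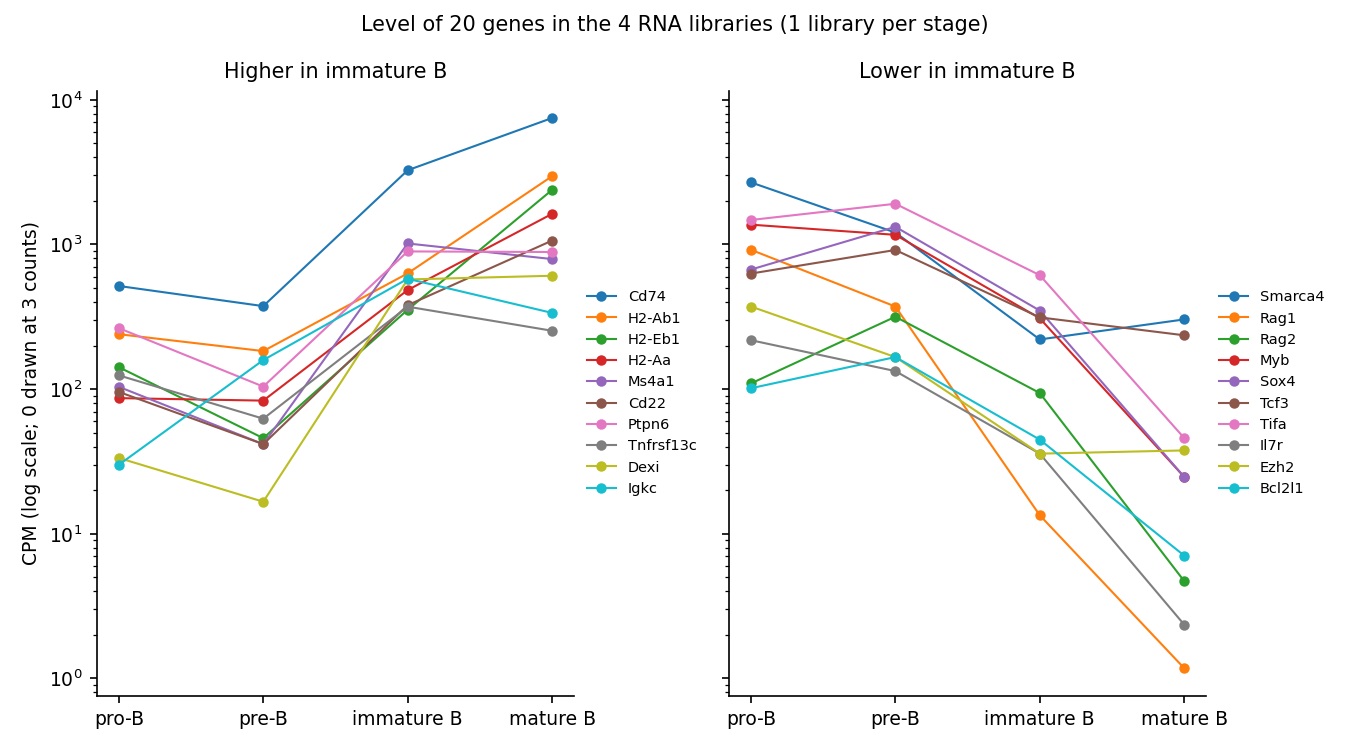
CPM (y axis, log scale) of 10 genes higher and 10 genes lower in the immature B library, in each of the 4 RNA libraries (x axis), with lines joining the single values of a gene and counts of 0 drawn at 3 counts. Cd74, H2-Ab1, H2-Eb1, H2-Aa and Cd22 are higher again in mature B cells, and Rag2, Myb, Sox4, Tifa, Il7r and Bcl2l1 are lower again; Rag1 had 0 counts in immature B and 1 count in mature B cells, whose mRNA column total is larger.

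Replication-dependent histones, the histones made in S phase to package new DNA, were the group that stood lowest at the minimum of 20 counts. Of 63 such genes, 42 reached 20 counts, 30 were called lower and none higher, all 42 had a log2 ratio below 0, and the median was -1.67. It was -1.35 over all members with a count. With a minimum of 50 counts it was -1.23, and SWI/SNF (-1.45) and V(D)J recombination (-1.30) stood lower. By FPKM it was -1.65, and mitosis stood lower at -1.74. Their sum was 8108 CPM in pre-B and 3109 CPM in immature B cells, 2.61-fold lower, with 4411 CPM in pro-B and 1537 CPM in mature B cells. The group was formed from the table's gene descriptions after values were seen. The histone list fixed by symbol held 22 genes, of which 14 reached 20 counts, 7 were lower and none higher, with a median of -0.98. These genes are near-identical copies and most of their counts are not whole, so that the sum is firmer than any member.

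H1f2, a linker histone, was at 681 and 412 CPM, 1.65-fold lower (1.28 to 2.16), and H1f1 had 40 and 4 counts, 9.30-fold lower (3.36 to 35.8). H4c12 had 65.8 and 8.15 counts, 7.51-fold lower (3.68 to 18.5). Hist1h2ao had 94.1 counts in pre-B and 0 in immature B cells, but also 0 in the pro-B library. With the 0 of immature B cells set to 3 counts it was 29.2-fold lower (interval from 23.2-fold). Of the 40 other histone genes, which include variants made outside S phase, 9 reached 20 counts, 2 were lower and 1 higher. H3f3a, a gene of the H3.3 variant, was at 1636 and 1530 CPM, H3f3b at 863 and 513 CPM, and H2az1 at 375 and 237 CPM, while H2aj had 8 and 16 counts.

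DNA replication enzymes gave few counts. Of 31 genes 14 reached 20 counts, 5 were lower and none higher, and the median log2 ratio was -0.64. The list summed to 3363 CPM in pre-B and 1364 CPM in immature B cells, and 1 gene carried much of that: without Gins2 the sum in pre-B cells was 1845 CPM and the ratio 1.35-fold lower in place of 2.46. Gins2, a subunit of the replicative helicase, had 365 counts in pre-B and 0 in immature B cells, with 104 in pro-B and 12.8 in mature B cells. With the 0 set to 3 counts Gins2 was 113-fold lower (interval from 91.6-fold). Its counts are not whole but estimated. Mcm5 (23 and 3 counts) and Mcm6 (53 and 16 counts), also of the helicase, were 7.13-fold (2.15 to 37.1) and 3.08-fold (1.73 to 5.78) lower. Pcna, the sliding clamp, had 33 and 14 counts, and Rrm1, of ribonucleotide reductase, 28 and 10. Tyms, thymidylate synthase, was at 316 and 386 CPM, Pold1 at 129 and 143 CPM, and Chaf1a at 117 and 208 CPM.

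Of 26 mitosis genes only 4 reached 20 counts, 2 of them lower, with a median log2 ratio of -1.19. Mki67, the Ki-67 proliferation antigen, was at 316 and 170 CPM, 1.86-fold lower (1.24 to 2.82), with 730 CPM in pro-B and 135 CPM in mature B cells. Ncapd2, a condensin subunit, had 24 and 2 counts, Prc1 18 and 6, and Top2a 14 and 8. Among G1 regulators 10 of 19 reached 20 counts. Ccnd2, cyclin D2, was the gene called higher, with 10 and 37 counts, a ratio of 3.98 (1.94 to 8.97), and E2f2 the gene called lower, at 329 and 157 CPM, 2.10-fold lower (1.39 to 3.22). Ccnd3, cyclin D3, was at 167 and 152 CPM.

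Subunits of SWI/SNF, which slides nucleosomes with ATP, differed among themselves. Of 24 genes 13 reached 20 counts, 5 were lower and none higher, and the median log2 ratio was -0.36. Smarca4 had 290 counts in pre-B and 49.3 in immature B cells, 5.48-fold lower (4.06 to 7.61), with 2685 CPM in pro-B and 303 CPM in mature B cells. Bcl7a was at 596 and 145 CPM, 4.11-fold lower (2.82 to 6.31). Bicra, a subunit of the GLTSCR1-containing form, was at 387 and 115 CPM, 3.36-fold lower (2.13 to 5.36). Arid1b was at 753 and 339 CPM, 2.22-fold lower (1.69 to 2.94), where its paralog Arid1a was at 285 and 399 CPM, a ratio of 1.40 (1.01 to 1.96). Smarcc1 had 20 and 8 counts, with an interval that holds 1.

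The list summed to 4267 CPM in pre-B and 2122 CPM in immature B cells, 2.01-fold lower. Without Smarca4 it was 1.61-fold lower. Without Smarca4, Bcl7a, Bicra and Arid1b, which were all called lower, the ratio of sums was 0.985 (0.836 to 1.16). Of the 9 genes then left with 20 or more counts, 1 was lower and none higher, and the median log2 ratio was 0.19. Because the genes left out were lower by their own values, these values follow in part from that choice and test nothing about the other subunits. The counts of Smarca4, Bcl7a, Bicra and Arid1b are not whole. Among 35 other chromatin regulators 31 reached 20 counts, 3 were higher (Dnmt3a, Chd1 and Setd1b) and 1 lower, with a median log2 ratio of 0.15. The lower gene was Ezh2, the methyltransferase of Polycomb complex 2, with 40 and 8 counts, 4.65-fold lower (2.15 to 11.5). Kmt2d, an H3K4 methyltransferase, was at 728 and 540 CPM, Kmt2e at 390 and 325 CPM and Chd4 at 425 and 398 CPM.

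Immediate early genes, which answer to receptor and stress signals within minutes, went both ways. Of 16 genes 12 reached 20 counts, 3 were higher and 2 lower, and the median log2 ratio was -0.21. Jun had 317 counts in pre-B and 90.1 in immature B cells, 3.27-fold lower (2.59 to 4.19), and Zfp36, which destabilises cytokine mRNAs, was at 213 and 45.5 CPM, 4.69-fold lower (2.38 to 10.5). Jund was at 2472 and 1381 CPM and Junb at 737 and 1038 CPM. Nr4a1, a receptor induced by antigen receptor signals, had 0 counts in pre-B and 29 in immature B cells, with 743 counts in mature B cells. With the 0 set to 3 counts Nr4a1 was 10.4-fold higher (interval from 7.92-fold). Fosb was at 177 and 416 CPM, a ratio of 2.35 (1.60 to 3.42), and Egr1 had 17 and 35.4 counts.

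Among 16 homing and egress receptors 11 reached 20 counts, 2 were higher and 2 lower, and the median log2 ratio was 0.50. With 18.2% called in each direction, the list was near the 14.5% and 15.8% over all genes. Cnr2, a cannabinoid receptor that holds immature B cells in marrow vessels, had 2 and 20 counts, a ratio of 10.7 (2.61 to 94.8). Itgal, an integrin chain of LFA-1, had 8 and 28 counts. Itgb7 had 20 and 5 counts, 3.72-fold lower, and Itgb1 22 and 10. Cxcr4, which retains cells in the marrow, was at 1553 and 1047 CPM, 1.48-fold lower (1.26 to 1.75). S1pr1, which guides egress, was at 308 and 559 CPM, a ratio of 1.82 (1.35 to 2.45), and Ccr7 at 350 and 689 CPM, a ratio of 1.97. Gpr183 was at 370 and 488 CPM.

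The 11 mitochondrial genome genes with 20 or more counts had no call and a median log2 ratio of 0.04, between -0.32 and 0.43. Of 72 ribosomal protein genes 5 were higher and 5 lower, with a median of -0.04, and Rps18 (2.55 and 50.1 counts) stood out at a log2 ratio of 4.40, with counts that are not whole. The 26 nuclear genes of the respiratory chain had 1 higher and 3 lower, with Ndufs8 (29 and 10 counts) the lowest and Atp5g2 (2.51 and 26.4 counts) the highest. Of 28 proteasome subunits 4 were higher, led by Psmd11 (6 and 28 counts), and 7 lower, led by Psmd6 (23 and 6 counts), with a median of -0.12. Of 11 glycolysis genes Gpi1 was higher and Tpi1 and Hk2 were lower, with a median near 0. Of 7 interferon-stimulated genes Bst2 was higher, 6 had a log2 ratio above 0 and the median was 0.46.

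Other genes had large ratios without belonging to a list. Scd1, a stearoyl-CoA desaturase, was at 44.1 CPM in pre-B and 597 CPM in immature B cells, a ratio of 13.5 (7.03 to 26.7). Tbc1d17 was at 145 and 988 CPM, Ptprj, the phosphatase CD148, at 146 and 787 CPM, Sorl1, a sorting receptor, at 91.6 and 528 CPM, and Prpf8, a core splicing factor, at 85.0 and 497 CPM. Their ratios lay between 5.41 and 6.81. On the lower side Klhl6 was at 459 and 49.8 CPM, Fam53b at 924 and 126 CPM, Gm9747 at 1186 and 246 CPM, Serinc5 at 790 and 180 CPM and Reln at 374 and 98.4 CPM, 3.80-fold to 9.22-fold lower. Tifa, an adaptor of the NF-kB pathway, was at 1911 and 613 CPM, a difference among the 5 largest on the CPM scale.

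The rows with the most counts were not genes known for a role in B cells, and whether their reads come from these genes was not tested. Slc38a6, Tmem72 and Noct had the most counts in both libraries, and with D10Wsu102e, Gm21962 and Gm21897 they held 9.38% of the mRNA counts in pre-B and 9.56% in immature B cells, against 2.34% in pro-B and 2.63% in mature B cells. Their summed counts were 22539 and 21360, close to the 20280 of pro-B and 22343 of mature B cells although the column totals differed. Noct, Tmem72 and Gm21962, with Actb (6673 and 9861 CPM) and Cd74, made up the 5 largest CPM differences upward, at ratios of 1.48 or less except for Cd74. Slc38a6 (30833 and 21950 CPM), Fndc9 (3713 and 2188 CPM), Olfr77 (7178 and 5660 CPM), Gins2 and Tifa made up the 5 largest downward. Next by counts came mt-Co1 and mt-Nd6, with log2 ratios of -0.16 and -0.01.

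The mature B and pro-B libraries share no library with this comparison and give a further look at the called genes, with no test. Of 4456 genes with 20 or more counts in both pairs, 10.1% were 2-fold or more higher in mature B than in pro-B cells and 14.5% lower. Of the 641 genes called higher in immature B cells with such counts, 141 (22.0%) were also higher in mature B cells and 41 (6.40%) lower, with a median log2 ratio of 0.18. Of the 690 genes called lower, 214 (31.0%) were also lower in mature B cells and 41 (5.94%) higher, with a median of -0.42. The 141 genes are 31.5% of the 448 higher in mature B cells, and the 214 are 33.2% of the 644 lower there. Most called genes thus lay within 2-fold between mature B and pro-B cells. Irf8, Ccnd2 and Dnmt3a, higher in immature than in pre-B cells, had log2 ratios below 0 in mature over pro-B cells, at -0.52, -1.34 and -0.89.

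**Figure D5:**
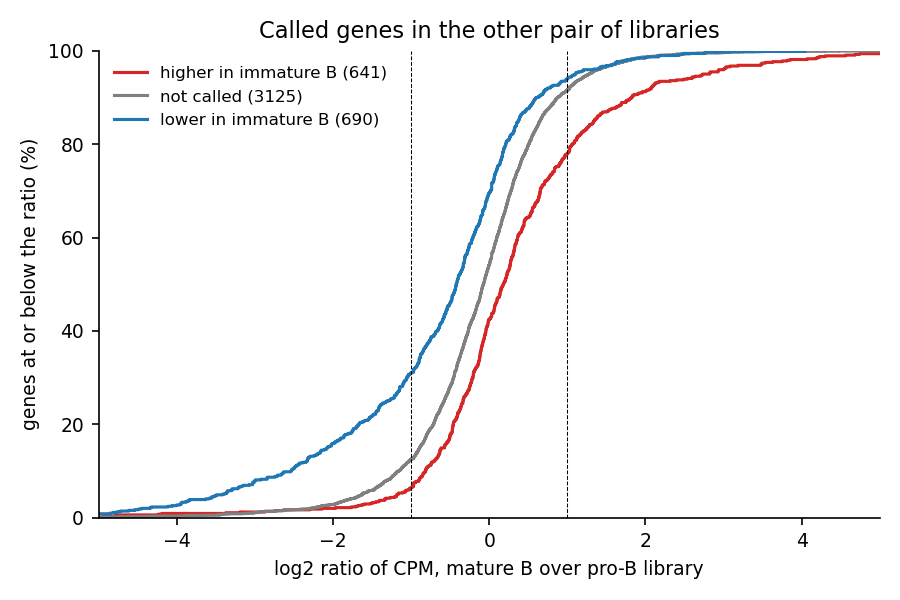
Curves give the percentage of genes (y axis) at or below a log2 ratio of CPM in mature B over pro-B cells (x axis), for genes higher, lower or not called between immature B and pre-B cells; dashed lines mark 2-fold. The curve of the 641 higher genes lies to the right and that of the 690 lower genes to the left of the 3125 genes not called.

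Back-spliced reads from the same RNA libraries offer another readout of some called genes. Of 668 genes called higher 45 hosted a circRNA with reads in these libraries (6.74%), of 726 called lower 51 (7.02%), and of all genes compared 364 (7.92%). The hosts called higher had 94 back-spliced reads in pre-B and 141 in immature B cells, the hosts called lower 288 and 183, and all hosts 1280 and 1342. Ezh2 hosted the most among called genes, with 73 and 33 back-spliced reads beside 40 and 8 counts in the mRNA table. Arid1b hosted 24 and 4. Directions differed between hosts: among genes lower in the mRNA table, Blnk hosted 0 and 16, Man2a1 4 and 14 and Trim33 0 and 11, and among genes higher there, Lpp hosted 12 and 0 and Pag1 10 and 0. Relative transcript length was read as count over FPKM in the pro-B and mature B libraries. Its median was 1.03 for genes called higher and 0.976 for genes called lower, where the median gene compared is near 1.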

How the data were processed

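RNA was sequenced from 4 stages of bone marrow B cells, with 1 rRNA-depleted, strand-specific library per stage. The study cleaned reads with fastp, removed rRNA reads with Bowtie2, mapped the rest with HISAT2 and estimated levels with StringTie. For mRNAs and lncRNAs the authors deposited estimated counts per gene or transcript, unnormalized and in part not whole. The authors' FPKM values, as deposited, were used in 1 alternative and for relative transcript length. The circRNA table holds deposited counts of back-spliced reads from find_circ. The submitters' processing notes name the mm9 build and Bowtie 0.12.2, with no role given, and coordinates of the files were not used here. The miRNA table was not used here.

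Each count of the mRNA table was divided by its column total and multiplied by 1000000 (CPM). Genes with 20 or more counts over the pre-B and immature B columns were kept, and a gene was called at a CPM ratio of 2 or more in either direction. A count that rounded to 0 was set to 3, so that its ratio depends on this setting. Intervals are exact (Clopper-Pearson) 95% intervals of the ratio, computed from the rounded counts of the 2 libraries. They cover counting error only, and many counts are even, as counts of read pairs would be, so that they are narrower than the number of fragments allows. With 1 library per stage there is no p-value and no replicate check. Scaling alternatives used edgeR 4.0.16 and DESeq2 1.42.0 in R 4.3.3, and the rest Python 3.11.15 with pandas 2.3.3, scipy 1.17.1 and numpy 2.4.6. The ratio, the calls and the intervals were tested on simulated counts.

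The comparison, the gene lists and the markers were chosen with earlier results of these data known. Named are the 5 markers, the 10 largest ratios in each direction among genes with 100 or more counts, the 5 largest CPM differences in each direction, the 5 genes with the most counts in each library and, in each list, the 4 members with the most counts and the largest called ratio in each direction. Other genes, the wider histone list, the V segment groups and the KEGG pathways were chosen after their values were seen.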

Additional observations from a re-analysis of the deposited data

How the results depend on the processing

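No paired analysis was possible because each stage has 1 RNA library and the shared number 1 pairs nothing. The genes called higher and lower numbered 1293 and 1324 with a minimum of 10 counts, 198 and 211 with a minimum of 50, 2115 and 1803 with a minimum of 1, 1181 and 1211 at a ratio of 1.5, and 184 and 184 at a ratio of 4. With halved counts, as for read pairs, 361 and 366 had an interval on one side of 1 (chosen after seeing the data). DESeq2 size factors moved the median log2 ratio of all genes by -0.10 and gave 596 and 844 calls, with the other scalings and FPKM between 647 and 846 higher and 721 and 840 lower. The median log2 ratio of the class II list was 1.99 and 1.69 with minimums of 10 and 1. That of V(D)J recombination was -1.35 by FPKM, -1.30 with a minimum of 50 and -0.31 with a minimum of 1. That of DNA replication was -1.01, 0.15 and -0.90 with minimums of 10, 50 and 1, and -0.90 among whole counts. That of SWI/SNF was -0.16 and -1.45 with minimums of 10 and 50, and 0.19 among whole counts. That of all histone genes was -1.46 with DESeq2 factors, -1.20, -1.04 and -1.12 with minimums of 10, 50 and 1, and -1.15 among whole counts. The mitosis median reversed to 0.059 with a minimum of 1. The causes of these shifts were not tested, and other minimums compare other genes. All 23 called genes named as markers or for their ratio, difference or counts kept their sign in each of the 216 values under alternatives. For most of these values the sign was fixed in advance. Other minimums and the limit to whole counts leave a gene's ratio unchanged, and the scalings shift all genes alike, by a log2 of 0.10 or less. FPKM alone could have changed a sign, and by FPKM Zeb2 alone came under 2-fold, at a log2 ratio of -0.59. Over all named genes, the other list medians and the split of calls by direction, 496 values were close to the reported value (within counting error, or 10 percentage points for the split) and 49 moved further, Ptpn6 among them at a log2 ratio of 1.88 by FPKM. The 496 include the gene ratios that a setting leaves unchanged.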

Other observations

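The table's KEGG pathways with 20 or more of the genes compared were looked through after the values were known. Over all genes compared, 14.5% were higher and 15.8% lower. In fatty acid metabolism 7 of 22 genes were higher and 1 lower in immature B cells, with a median log2 ratio of 0.37. Scd1 led this pathway, and Acsl3, an acyl-CoA synthetase, had 2 counts in pre-B and 18 in immature B cells. Fasn, the fatty acid synthase, was at 279 and 412 CPM, a ratio of 1.48 (1.07 to 2.05), and Acly and Scd2 lay within 2-fold at ratios of 1.15 and 1.11. Acsl1 was the gene called lower, with 26 and 12 counts and an interval from 0.982-fold to 4.39-fold lower that holds 1. In the lysosome pathway 13 of 48 genes were higher and 3 lower, with a median of 0.29. In antigen processing and presentation 11 of 36 were higher and none lower, and these include the class II genes described above. In the NF-kappa B signaling pathway calls went both ways, with 16 of 52 higher and 11 lower.

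The pathway with the lowest median, -1.06, was systemic lupus erythematosus, with 35 of 66 genes lower, and it consists largely of the histone genes described above. In the spliceosome pathway 6 of 81 genes were higher and 11 lower, both smaller shares than the 14.5% and 15.8% over all genes. The heavy chain constant genes other than Ighm and Ighd had 62 counts in pre-B and 41 in immature B cells.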
